A study of Homo sapiens with 22 samples.

Results

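The mitochondrial chaperones and proteases are described here by 10 genes, chosen by name as the core protein folding and protein degrading machinery inside the organelle: HSPA9, HSPD1, HSPE1, LONP1, CLPP, TRAP1, DNAJA3, AFG3L2, SPG7 and YME1L1. All 10 were found among the 58278 entries of the count tables, and all 10 passed the filter on low counts in both assays. The cells were LN308, an established line of glial origin grown from an astrocytoma, in which protein folding in the endoplasmic reticulum (ER) was disturbed with drugs. RNA-Seq measured the RNA of each gene, and Ribo-Seq measured ribosome footprints, the RNA fragments of 27 to 33 nucleotides that ribosomes shield from nuclease after elongation is stopped with 0.1 mg/ml cycloheximide for 5 min. Each assay had 3 libraries of tunicamycin (TM, 2.5 µg/ml) for 2 h and 3 for 6 h, 1 library of thapsigargin (TH, 200 nM) for 2 h and 1 for 6 h, and 3 untreated libraries at 0 h. TM blocks N-linked glycosylation and TH blocks the pump that fills the ER with calcium. The drugs were dissolved in DMSO, the 0 h libraries are labelled untreated, and no vehicle library of 2 h or 6 h is listed, so drug, vehicle and time in culture cannot be told apart. The labels do not say that replicates were separate cultures, so p-values measure the spread between these libraries, which may be technical.

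Proteins enter the mitochondrial matrix unfolded, through channels in both membranes. The matrix Hsp70, encoded by HSPA9 (mortalin), pulls them in and holds them, DNAJA3 (Tid1) is a J-domain partner that stimulates its ATPase, and the Hsp60 ring of HSPD1 with its Hsp10 lid of HSPE1 folds them in a closed chamber. TRAP1 is the mitochondrial Hsp90. LONP1 and CLPP degrade misfolded or damaged matrix proteins, the first as a single ATP-driven protease and the second as a peptidase barrel fed by a separate unfoldase. In the inner membrane AFG3L2 and SPG7 (paraplegin) form the m-AAA protease, which faces the matrix, and YME1L1 forms the i-AAA protease, which faces the intermembrane space. Several of these genes are known targets of the mitochondrial unfolded protein response, which in mammalian cells shares the factor ATF4 with the response to ER stress.

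Library totals were 101371822 to 166586145 counts in RNA-Seq and 4387173 to 29183769 counts in Ribo-Seq, so footprint values of rarer members rest on few counts, 21 to 260 for HSPE1. Some RNA libraries stand apart. Untreated replicate 1 had counts for 53489 entries, against 38264 to 40331 in the other 10 RNA libraries. Its scaling factor by trimmed mean of M values (TMM) was 1.46, against 0.904 to 1.06 in the others, which lowers its scaled levels. After this scaling it had the lowest level of its group for all 10 members. By library total alone, LONP1, AFG3L2, SPG7 and YME1L1 were the highest of the group in it. TM replicate 1 at 2 h and 6 h and both TH libraries held 0.443%, 0.479%, 0.587% and 0.492% mitochondrially encoded mRNA, against 1.06% to 1.61% in the other 7 RNA libraries, and no untreated library was as low. In Ribo-Seq, untreated replicate 1 had the largest total, 29183769 counts. It held 0.869% mitochondrially encoded mRNA, against 1.32% to 3.40% in the other Ribo-Seq libraries. Chi-square per degree of freedom was 219 and 217 between it and untreated replicates 2 and 3, against 31.6 between those. The part of these differences in the results was not tested, and values without replicate 1 are given beside the TM results. Of the 12 glial and astrocyte markers examined, VIM, CD44, NES and S100B had at least 451, 340, 241 and 43.5 CPM (read counts scaled to library size) in every RNA library. SOX2 had 7.21 to 70.9, OLIG2 9.80 to 43.96 and SLC1A3 1.65 to 33.7 CPM, and GFAP, ALDH1L1, SLC1A2, SOX9 and AQP4 stayed at or below 3.38, 1.16, 0.939, 0.656 and 0.397 CPM. The blood cell marker PTPRC reached at most 1.18 CPM. Of the epithelial and mesenchymal markers examined, FN1 had 2838 to 6563 CPM and KRT18 41.3 to 120.2 CPM in RNA. KRT8 was next with 7.04 to 16.5 CPM, and the others stayed below 10 CPM.

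The start regions of the genes whose levels are compared most closely below are printed first. They come from RefSeq, assembly GRCh38.p14, in lower case and 5′ to 3′ on the strand named, and end at the base before the annotated start. HSPA9 (chr5:138553756-138575401) and LONP1 (chr19:5691834-5720452) are shown because they were the members with calls, DNAJA3 (chr16:4425868-4456775) as the partner of HSPA9, SPG7 (chr16:89508388-89557768) as the member with lower values, and HSPD1 (chr2:197486584-197500274) with HSPE1 (chr2:197500379-197503449) because they lie head to head with 104 bases between their starts. Capitals mark letters of the motifs that were searched: in HSPA9 a GC box, in DNAJA3 a CCAAT box and in SPG7 a UPRE, the unfolded protein response element, each of them spelled on the strand opposite to the one printed. The windows are chr5:138575402-138575651 (minus strand) for HSPA9, chr19:5720453-5720636 (minus strand) for the 184 bases between LONP1 and the start of its neighbour CATSPERD, chr16:4425618-4425867 (plus strand) for DNAJA3, chr16:89508138-89508387 (plus strand) for SPG7 and chr2:197500275-197500378 (plus strand) between HSPD1 and HSPE1.
HSPA9: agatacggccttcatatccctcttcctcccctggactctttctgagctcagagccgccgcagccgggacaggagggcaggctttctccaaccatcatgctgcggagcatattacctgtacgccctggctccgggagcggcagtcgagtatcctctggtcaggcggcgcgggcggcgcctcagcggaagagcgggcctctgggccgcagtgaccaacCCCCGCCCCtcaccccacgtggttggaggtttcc
LONP1-CATSPERD: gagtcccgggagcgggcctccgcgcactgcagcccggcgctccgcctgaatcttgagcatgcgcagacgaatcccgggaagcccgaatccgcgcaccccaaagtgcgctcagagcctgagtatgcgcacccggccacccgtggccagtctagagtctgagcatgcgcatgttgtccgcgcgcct
DNAJA3: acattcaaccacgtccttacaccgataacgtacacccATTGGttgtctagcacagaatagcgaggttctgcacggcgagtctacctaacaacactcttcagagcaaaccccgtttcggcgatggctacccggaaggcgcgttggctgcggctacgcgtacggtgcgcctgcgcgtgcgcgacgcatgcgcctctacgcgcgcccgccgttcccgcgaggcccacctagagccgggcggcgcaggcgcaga
SPG7: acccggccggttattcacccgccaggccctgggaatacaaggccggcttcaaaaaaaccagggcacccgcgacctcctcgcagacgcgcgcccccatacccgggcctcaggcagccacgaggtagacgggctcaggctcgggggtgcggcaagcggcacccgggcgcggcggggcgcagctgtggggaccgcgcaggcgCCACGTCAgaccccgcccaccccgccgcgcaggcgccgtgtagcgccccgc
HSPD1-HSPE1: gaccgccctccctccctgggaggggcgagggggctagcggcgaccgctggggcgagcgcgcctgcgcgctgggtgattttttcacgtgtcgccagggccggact

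Motifs were searched on both strands of the 250 bases before each start in 35116 RefSeq windows, of which 8 of the 10 members had at least 1 (CLPP and YME1L1 had none in the table). CCAAT was found in DNAJA3 and is in 32% of all windows. The UPRE, TGACGTGG, was found in SPG7, with its first base 51 bases upstream of the start, and is in 0.612% of all windows. The GC box GGGGCGGGG was found in AFG3L2, HSPA9, HSPD1 and TRAP1 and is in 15.1% of all windows. In HSPD1 it was only in the window of a second, downstream start, which is not printed. A heat shock element was found in that same HSPD1 window and is in 0.441% of all windows. The ER stress response elements ERSE and ERSE-II, in 0.074% and 0.0513% of all windows, and TGATGNAA, the core of the amino acid response element that ATF4 and CHOP bind, in 3.14%, were in no window of the 8 members. A match describes letters in a window and is not a binding site, and a missing match says nothing of the factor outside the window.

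The first question is which members changed in RNA after 6 h of TM. HSPA9 and LONP1 rose, each by more than 2-fold in the fitted values, and the other 8 members did not pass the test. HSPA9 RNA had 1320.3, 917 and 982 CPM in the TM 6 h libraries, against 240.3, 459 and 464 CPM in the untreated libraries (replicates 1, 2 and 3 in this order here and below; CPM after scaling by trimmed mean of M values, TMM). Every TM library lay above every untreated library, and untreated replicate 1 was the lowest. The log2 fold change was 1.47 ± 0.31 (SE), or 2.77-fold, with an adjusted p of 0.0487 (edgeR quasi-likelihood test, Benjamini-Hochberg over 41130 genes). LONP1 RNA had 224, 212 and 226 CPM in the TM 6 h libraries, against 83.5, 113 and 105 CPM in the untreated libraries. Its TM libraries spread little, 221 ± 7.26 CPM against 101 ± 15.5 CPM in untreated libraries (SD, n = 3 each). The log2 fold change of LONP1 was 1.13 ± 0.20, or 2.19-fold, with an edgeR adjusted p of 0.0222. In bulk RNA, more RNA per cell and a change in which cells are present cannot be told apart.

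Beside HSPA9, its J-domain partner DNAJA3 had 161, 115 and 127 RNA CPM in the TM 6 h libraries, against 50.01, 86.8 and 69 CPM in the untreated libraries. The groups did not overlap, and the log2 fold change of 0.97 ± 0.26 had an edgeR adjusted p of 0.116. The i-AAA protease YME1L1 (chr10:27110111-27154384) had 408, 291 and 336 RNA CPM in the TM 6 h libraries, against 159, 188 and 211 CPM in the untreated libraries. These groups did not overlap either, with a log2 fold change of 0.89 ± 0.24 and an edgeR adjusted p of 0.109. The m-AAA subunits differed in sign without passing the test. AFG3L2 (chr18:12328944-12377227) had 76.9, 53.2 and 52.03 RNA CPM in the TM 6 h libraries, against 37.7, 45.8 and 49.1 CPM in the untreated libraries, a log2 fold change of 0.46 ± 0.25 (edgeR adjusted p 0.345). SPG7 had 68.4, 71.6 and 71.5 RNA CPM in the TM 6 h libraries, against 75.3, 92.5 and 103 CPM in the untreated libraries, a log2 fold change of -0.35 ± 0.19 (edgeR adjusted p 0.345). All 3 TM libraries of SPG7 lay below all 3 untreated ones, the only member with that pattern in this comparison.

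The folding chamber genes overlapped between the groups. HSPD1 had 935, 573 and 595 RNA CPM in the TM 6 h libraries, against 322, 576 and 473 CPM in the untreated libraries, and a log2 fold change of 0.62 ± 0.35 (edgeR adjusted p 0.352). HSPE1 had 30.04, 27.3 and 25.2 RNA CPM in the TM 6 h libraries, against 15.2, 39.3 and 32.7 CPM in the untreated libraries, and a log2 fold change of -0.08 ± 0.36 (edgeR adjusted p 0.914). The ratio of HSPD1 to HSPE1 counts, which needs no scaling between libraries, was 31.1, 21.0 and 23.7 in the TM 6 h RNA libraries, 25.2 in the TH 6 h library, and 21.1, 14.6 and 14.5 in the untreated libraries. The ratio was higher with TM in all 3 same-numbered pairs, while across pairs TM replicate 2 fell just under untreated replicate 1. The difference was not tested. TRAP1 (chr16:3658037-3717524) had 58.3, 49.6 and 50.8 RNA CPM in the TM 6 h libraries, against 33.6, 54.6 and 50.6 CPM in the untreated libraries, with a log2 fold change of 0.19 ± 0.23 (edgeR adjusted p 0.635). CLPP (chr19:6361531-6370242) had 22.9, 26.7 and 25.1 RNA CPM in the TM 6 h libraries, against 18.4, 31.5 and 28.3 CPM in the untreated libraries, with a log2 fold change of -0.07 ± 0.23 (edgeR adjusted p 0.886). The pair of matrix proteases thus held 1 gene called higher, LONP1, and 1 with a fitted change near 0, CLPP; the difference between them was not tested.

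**Figure D1:**
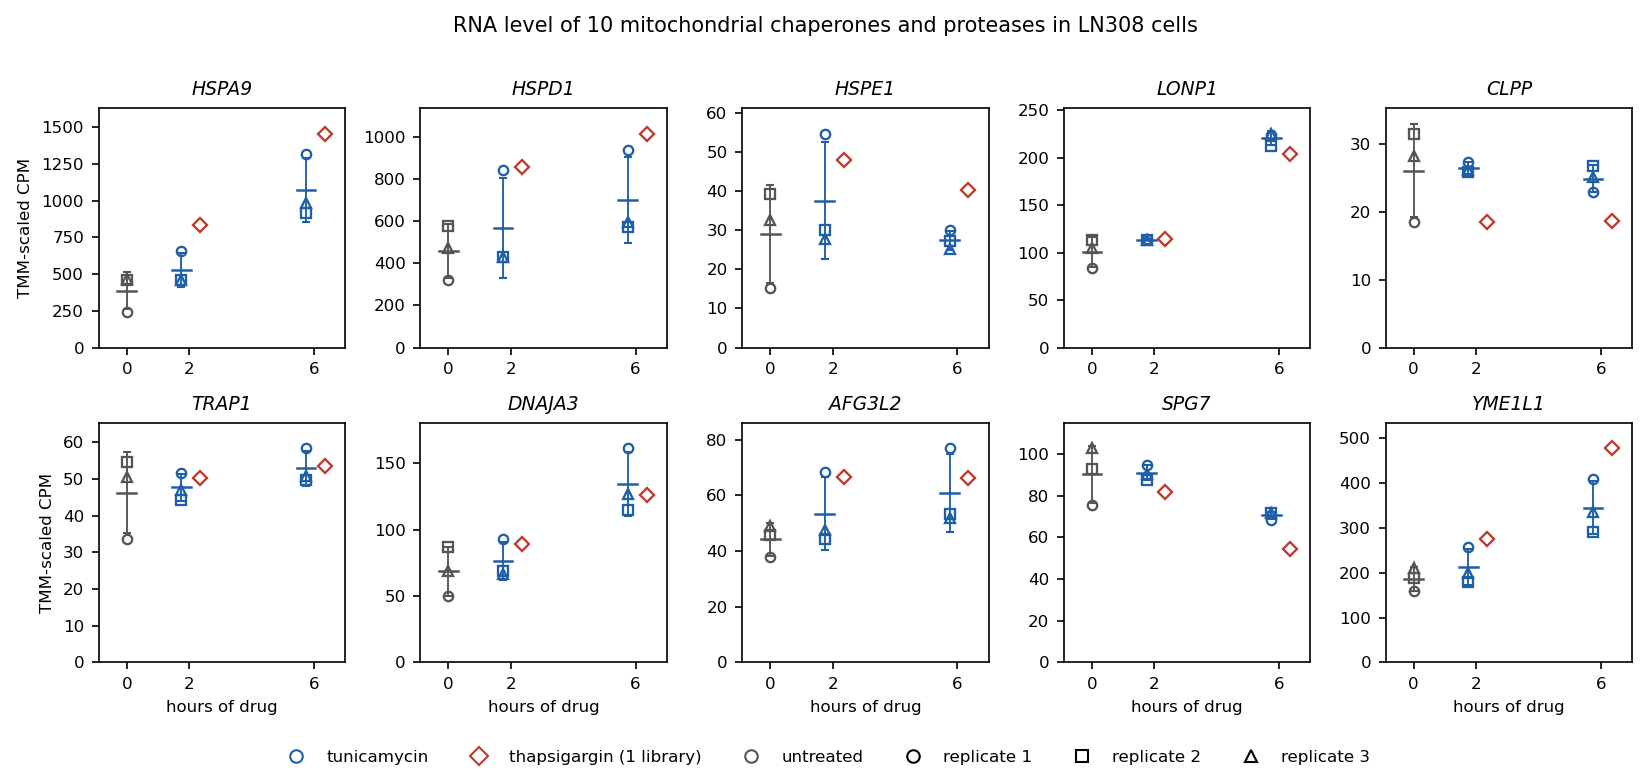
RNA level of each member in every library, one panel per gene, in TMM-scaled CPM on a linear axis from 0 against hours of treatment, with TM replicates and the single TH library of each time marked apart and horizontal bars for group means with SD. The TM 6 h libraries of HSPA9 and LONP1 lie above all untreated libraries, and those of CLPP and TRAP1 overlap them.

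As a group, 2 of the 10 members were called higher and 0 lower in RNA at TM 6 h, against 1.23% of all tested genes called higher and 0.275% called lower. At an unadjusted p under 0.05 there were 4 members, HSPA9, LONP1, DNAJA3 and YME1L1, against 17.4% of all genes. The groups did not overlap, with TM higher, for 5 members (HSPA9, LONP1, DNAJA3, AFG3L2 and YME1L1), against 10.5% of all genes. With TM lower this held for SPG7, against 10.6% of all genes. These are TMM-scaled levels, and by library total alone the AFG3L2 groups overlapped. The median log2 fold change was 0.54 over the 10 members and -0.27 over all genes tested, which were not matched to the members in level. Members with changes near 0 also lay above that median: CLPP at -0.07 was above 59.5% of all genes and HSPE1 at -0.08 above 58.8%. With the replicate number as a block, 4 members were called higher (HSPA9, adjusted p 0.0316; LONP1, 0.00577; DNAJA3, 0.0484; YME1L1, 0.0271, by edgeR), beside 2306 calls over all genes in place of 617. Both calls were lost without untreated replicate 2, without untreated replicate 3 or without any 1 of the TM 6 h replicates, and both were kept without untreated replicate 1. With replicates 2 and 3 alone, chosen after seeing the data, 6 members were called (HSPA9, LONP1, DNAJA3 and YME1L1 higher, and HSPE1 and SPG7 lower), beside 5590 genes in all.

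At 2 h of TM no member passed the same test. HSPA9 RNA had 661, 459 and 461 CPM in the TM 2 h libraries, against 240.3, 459 and 464 CPM in the untreated libraries, a log2 fold change of 0.44 ± 0.31. Replicate 1 was high at 2 h and low untreated, while replicates 2 and 3 nearly equalled their untreated values. LONP1 RNA had 114, 113 and 114 CPM in the TM 2 h libraries, against 83.5, 113 and 105 CPM in the untreated libraries. By edgeR 0 of 10 members were called and 0 had an unadjusted p under 0.05, DESeq2 called 0, and 0.00973% of all genes were called higher by edgeR. Fitted log2 fold changes ran between 0.01 and 0.44, with a median of 0.18 against -0.17 over all genes, and their sign rests on replicate 1. In TMM-scaled CPM the TM 2 h library was above the untreated library of the same number for 10 of 10 members in replicate 1. This held for 0 in replicate 2 and for 1, LONP1, in replicate 3. By library total alone, LONP1, CLPP and SPG7 were not above it in replicate 1. With replicates 2 and 3 alone 0 members were called, and over the alternatives HSPD1 reached -0.27 and HSPE1 -0.29. No member's groups failed to overlap, against 3.44% of genes higher and 5.88% lower.

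Between 2 h and 6 h of TM, HSPA9, LONP1, DNAJA3 and YME1L1 had the highest fitted changes in RNA. LONP1 differed by a log2 fold change of 0.96 ± 0.20 (edgeR adjusted p 0.0645), HSPA9 by 1.03 ± 0.31 (0.211), DNAJA3 by 0.82 (0.251) and YME1L1 by 0.70 (0.287). In all 4 the 6 h libraries lay above all 2 h libraries, against 10.3% of all genes, and SPG7 lay below, against 9.21%. By edgeR 0 members were called, against 0.588% of all genes higher and 0.153% lower. At an unadjusted p under 0.05 there were 4 members, against 9.75% of all genes, and DESeq2 called 4 members and 1583 genes in all. With the replicate block LONP1 and YME1L1 were called, beside 1651 genes in place of 305, and with replicates 2 and 3 alone 6 members were called, HSPA9, HSPD1, LONP1, DNAJA3 and YME1L1 higher and SPG7 lower, beside 7230 genes in all.

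The next question is whether ribosome footprints on the members changed. HSPA9 rose at TM 6 h, and it was the 1 member called. HSPA9 footprints had 427, 402 and 409 CPM in the TM 6 h libraries, against 154, 138 and 172 CPM in the untreated libraries. The replicates of each group lay close together for this gene, 412 ± 12.96 CPM for TM against 155 ± 16.9 CPM untreated (SD, n = 3 each). Untreated replicate 1, which differs as a library, did not stand apart in it. The log2 fold change was 1.41 ± 0.28, or 2.67-fold, with an edgeR adjusted p of 0.0341 over 19411 genes. LONP1 footprints had 182, 227 and 184 CPM in the TM 6 h libraries, against 89.9, 102 and 105 CPM in the untreated libraries, a log2 fold change of 1.00 ± 0.24 (edgeR adjusted p 0.0921). DNAJA3 footprints had 104, 109 and 98.1 CPM in the TM 6 h libraries, against 54.7, 62.6 and 63.6 CPM in the untreated libraries, a log2 fold change of 0.78 ± 0.23 (edgeR adjusted p 0.168). Neither gene's groups overlapped.

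HSPD1 footprints, unlike its RNA, did not overlap between groups, with 180.2, 160.2 and 147 CPM in the TM 6 h libraries, against 109.6, 122 and 119.6 CPM in the untreated libraries. Its log2 fold change was 0.47 ± 0.23 (edgeR adjusted p 0.433). YME1L1 footprints had 190.1, 190.1 and 211 CPM in the TM 6 h libraries, against 182, 112 and 124 CPM in the untreated libraries, with untreated replicate 1 high, and a log2 fold change of 0.50 ± 0.26 (edgeR adjusted p 0.468). SPG7 footprints had 39.9, 56.99 and 57.5 CPM in the TM 6 h libraries, against 57.4, 63.7 and 68.5 CPM in the untreated libraries, a log2 fold change of -0.30 ± 0.31 (edgeR adjusted p 0.767). The other 4 members had fitted log2 changes near 0: 0.12 for TRAP1, 0.10 for HSPE1, -0.01 for CLPP and under 0.01 in size for AFG3L2. Counted over the members, 1 was called higher and 0 lower by edgeR, against 0.67% of all genes higher and 0.17% lower. At an unadjusted p under 0.05 there were 3 members, against 12.1% of all genes. Groups did not overlap with TM higher for 5 members (HSPA9, HSPD1, LONP1, DNAJA3 and YME1L1), against 9.54% of all genes, and with TM lower for 0, against 11.1%. The median log2 fold change was 0.30 over the members and -0.07 over all genes.

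**Figure D2:**
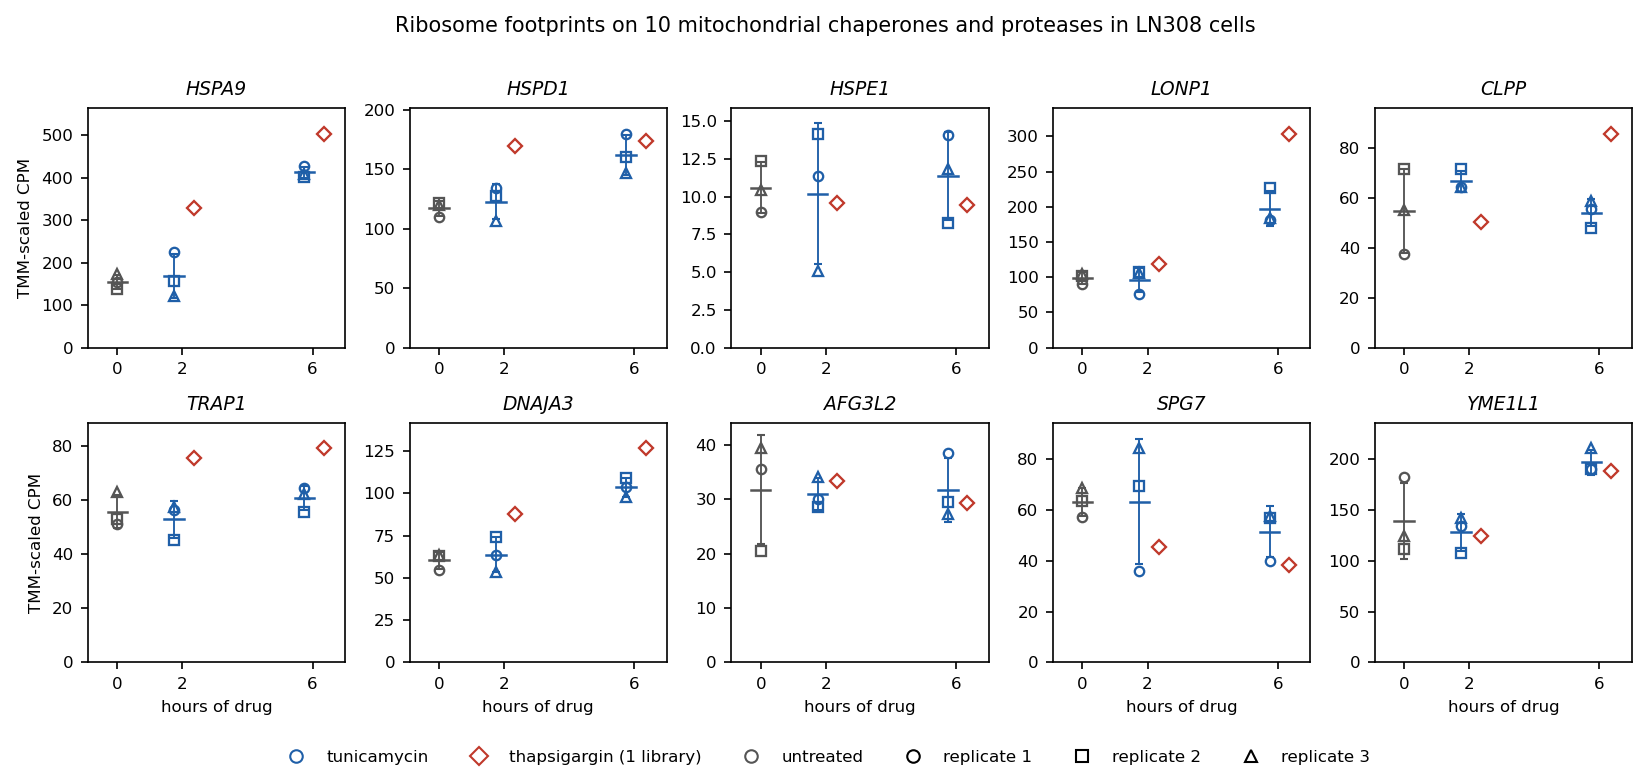
Ribosome footprint level of each member in every library, one panel per gene, in TMM-scaled CPM on a linear axis from 0 against hours of treatment, with TM replicates and the single TH library of each time marked apart and horizontal bars for group means with SD. The TM 6 h libraries of HSPA9 lie above all untreated libraries, and the TH library at 6 h is the highest for HSPA9, LONP1, CLPP, TRAP1 and DNAJA3.

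With the replicate block, HSPA9 and LONP1 were both called in footprints at TM 6 h, beside 386 genes in place of 163. The call of HSPA9 was lost without untreated replicate 2, without untreated replicate 3 or without any 1 of the TM 6 h replicates, and was kept without untreated replicate 1; with replicates 2 and 3 alone both HSPA9 and LONP1 were called, beside 378 genes in all. At TM 2 h the members' log2 fold changes in footprints ran between -0.12 and 0.29 with a median of -0.02, and edgeR called 0 members and 0 genes, with 619 genes at an unadjusted p under 0.05; DESeq2 called 3 genes and 0 members. HSPA9 footprints had 225, 157 and 122 CPM in the TM 2 h libraries, which overlap the untreated ones. No member's groups failed to overlap at TM 2 h, against 2.58% of all genes higher and 3.76% lower. From 2 h to 6 h of TM, HSPA9 footprints differed by 1.29 ± 0.28 on the log2 scale (edgeR adjusted p 0.0549) and LONP1 by 1.04 ± 0.24 (0.0808), with DNAJA3 at 0.70 (0.263) and YME1L1 at 0.62 (0.428). In this comparison edgeR called 0 members, against 0.608% of genes higher and 0.144% lower, with 4 members at an unadjusted p under 0.05, against 10% of all genes. DESeq2 called 3 members and 526 genes in all, and the replicate block called HSPA9 and LONP1, beside 364 genes in place of 146. Without TM 2 h replicate 1, HSPA9 was called. The 6 h libraries lay above all 2 h libraries for HSPA9, HSPD1, LONP1, DNAJA3 and YME1L1, against 9.1% of all genes, and below them for CLPP, against 8.53%.

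TH had 1 library per time, so its comparisons borrow the spread of the other groups and have no replicate check of their own. At 6 h HSPA9 was called higher in both assays and LONP1 in footprints. HSPA9 RNA had 1456 CPM in the TH 6 h library, against 240.3, 459 and 464 CPM in the untreated libraries, a log2 fold change of 1.91 ± 0.40 (edgeR adjusted p 0.0426). HSPA9 footprints had 504 CPM in the TH 6 h library, against 154, 138 and 172 CPM in the untreated libraries, a log2 fold change of 1.70 ± 0.36 (edgeR adjusted p 0.0456). LONP1 footprints had 304 CPM in the TH 6 h library, against 89.9, 102 and 105 CPM in the untreated libraries, a log2 fold change of 1.62 ± 0.31 (edgeR adjusted p 0.0308). LONP1 RNA did not pass the test, with 204 CPM in the TH 6 h library, against 83.5, 113 and 105 CPM in the untreated libraries, and a log2 fold change of 1.02 ± 0.27 (edgeR adjusted p 0.0861). YME1L1 RNA had 478 CPM in the TH 6 h library, against 159, 188 and 211 CPM in the untreated libraries, a log2 fold change of 1.36 ± 0.31 (edgeR adjusted p 0.058). YME1L1 footprints had 188 CPM in the TH 6 h library, against 182, 112 and 124 CPM in the untreated libraries, so RNA lay above its untreated range and footprints just above theirs.

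Of the other members at TH 6 h, SPG7 had 54.4 RNA CPM, against 75.3, 92.5 and 103 CPM in the untreated libraries, a log2 fold change of -0.73 ± 0.29 (edgeR adjusted p 0.236). SPG7 footprints were also below the untreated range, 38.1 CPM in the TH 6 h library against 57.4, 63.7 and 68.5 CPM in the untreated libraries. CLPP stood on opposite sides in the assays: 18.6 RNA CPM in the TH 6 h library against 18.4, 31.5 and 28.3 CPM untreated, and 85.9 footprint CPM in the TH 6 h library against 37.6, 71.6 and 55.1 CPM untreated. The RNA value lay at the low end of the untreated range and the footprint value above it. In RNA 1 member was called, against 1.49% of all genes called higher and 0.301% lower, with a median log2 fold change of 0.73 over the members and -0.50 over all genes. In footprints 2 members were called, against 0.747% of all genes called higher and 0.227% lower, with medians of 0.54 and -0.27. All of these calls were lost without untreated replicate 2 or without untreated replicate 3 of the assay, and without untreated replicate 1 RNA calls numbered 4 (HSPA9, LONP1 and YME1L1 higher, SPG7 lower), beside 2411 genes in all in place of 737, and footprint calls 2, beside 300 in place of 189.

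At TH 2 h 0 members were called by edgeR in either assay, against 0.0973% of all genes higher and 0.00243% lower in RNA, and 0.0567% higher and 0.0258% lower in footprints. HSPA9 lay above its untreated range in both assays: its RNA had 836 CPM in the TH 2 h library, against 240.3, 459 and 464 CPM in the untreated libraries, and its footprints had 328 CPM in the TH 2 h library, against 154, 138 and 172 CPM in the untreated libraries. The fitted log2 fold changes were 1.11 ± 0.41 in RNA (edgeR adjusted p 0.418) and 1.08 ± 0.37 in footprints (edgeR adjusted p 0.76). The TH and TM comparisons share the untreated libraries, so they are not independent. The TH RNA libraries and TM replicate 1 had a low share of mitochondrially encoded mRNA. At each time these libraries had higher RNA levels of HSPA9, HSPD1, HSPE1, TRAP1, AFG3L2 and YME1L1 than TM replicates 2 and 3. For HSPA9 and YME1L1 the 2 h levels of these libraries lay below those of TM replicates 2 and 3 at 6 h. For HSPD1 they lay above, 842 and 856 CPM against 573 and 595 CPM, and likewise for HSPE1 and AFG3L2. For TRAP1 they were 51.7 and 50.2 CPM, against 49.6 and 50.8 CPM. The part of the low share in these values was not tested.

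**Figure D3:**
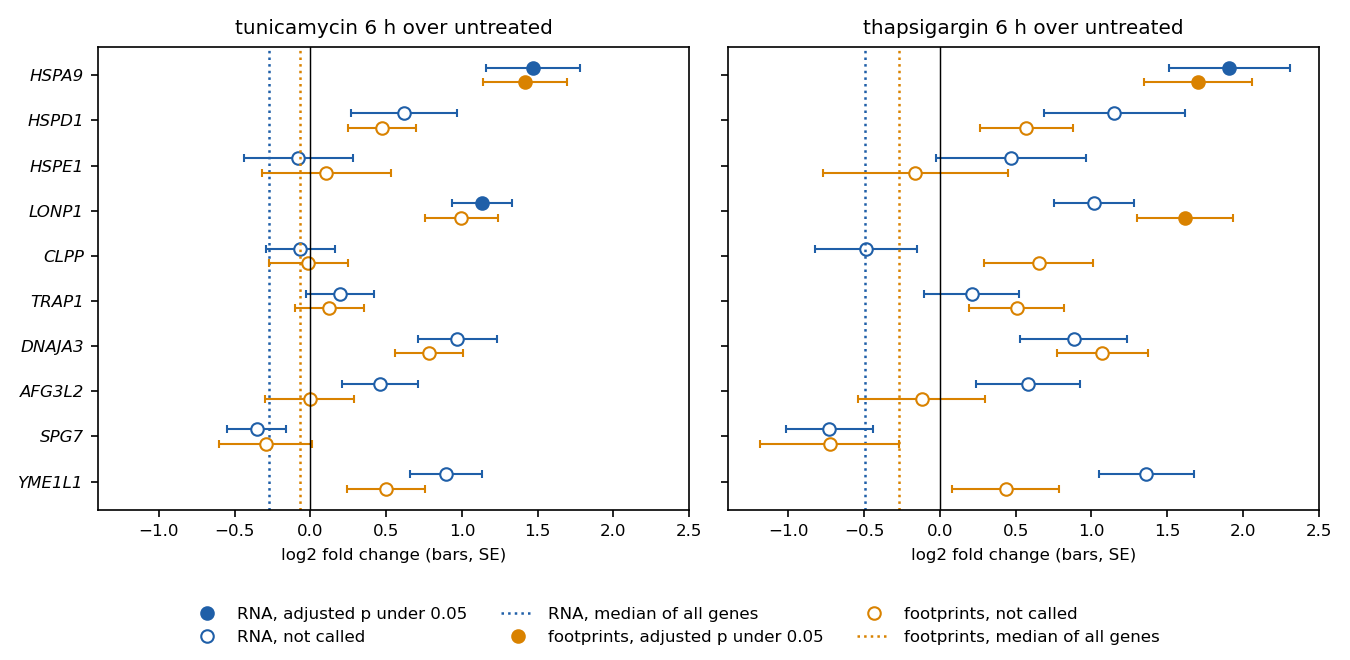
Log2 fold changes with standard errors of the members at 6 h, in RNA and in footprints, for TM over untreated on the left and TH over untreated on the right. Dotted lines mark the median of all genes. Every member except SPG7 lies above it in both assays and with both drugs, CLPP only just so in RNA with TH.

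Translational efficiency, the footprint change relative to the RNA change in 1 model over all 22 libraries, gave 0 calls among the members in any of the 5 comparisons. At TM 6 h versus untreated the members lay between -0.35 ± 0.36 (AFG3L2) and 0.26 ± 0.49 (HSPE1) on the log2 scale, with 0 at an unadjusted p under 0.05, against 7.51% of all genes, and 0 called with replicates 2 and 3 alone. HSPA9 was at 0.03 ± 0.34 and LONP1 at -0.03 ± 0.26, so their footprint change was close to their RNA change, within standard errors that leave room for a moderate difference. Their signs changed with the setting, over -0.16 to 0.33 for HSPA9 and -0.29 to 0.08 for LONP1. At TH 6 h CLPP was at 1.26 ± 0.44 (unadjusted p 0.0105, edgeR adjusted p 0.600), LONP1 at 0.73 ± 0.37 (adjusted p 0.779) and YME1L1 at -0.81 ± 0.44 (adjusted p 0.820). Over all 39928 genes edgeR called 1 gene lower at TH 2 h, 0.0025%, and 0 in the other 4 comparisons, while DESeq2 called 15 to 229 genes per comparison and 0 members.

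**Figure D4:**
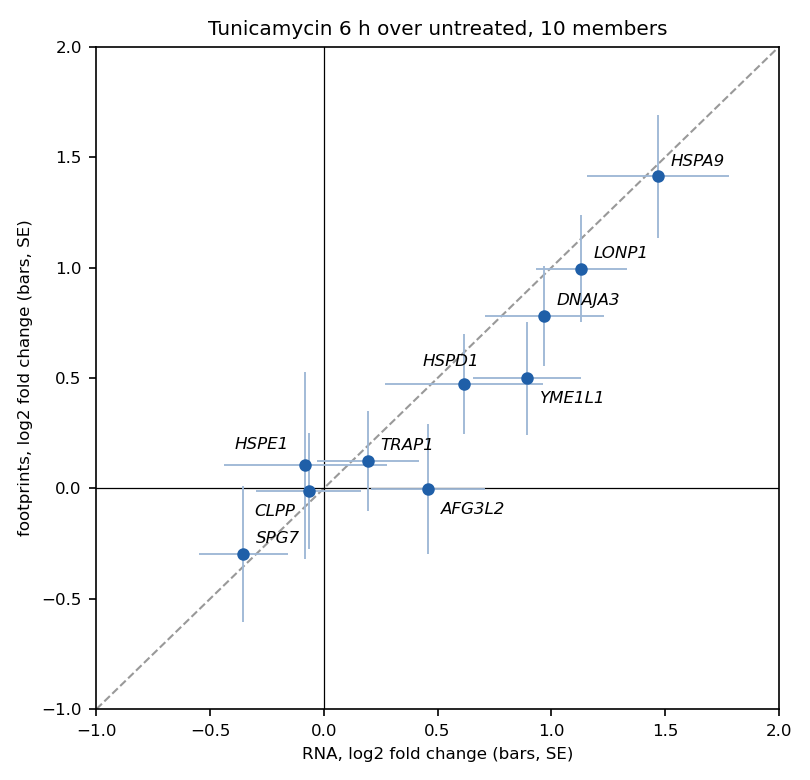
Footprint log2 fold changes against RNA log2 fold changes of the 10 members at TM 6 h over untreated, with standard errors and a dashed line of equal change. HSPA9, LONP1, DNAJA3, AFG3L2 and YME1L1 all lie below the line, the first 3 within their standard errors of it. The translational efficiency fits of AFG3L2 (-0.35 ± 0.36) and YME1L1 (-0.29 ± 0.31) were within 1 standard error of 0.

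Summed over the members, 0.252% ± 0.0426 of all counts fell on these 10 genes in the TM 6 h RNA libraries and 0.159% ± 0.0104 in the untreated RNA libraries (SD, n = 3 each). In footprints the sum was 0.122% ± 0.0113 in the TM 6 h libraries and 0.0778% ± 0.000208 in the untreated libraries. In replicates 2 and 3 alone the RNA sums were 0.225% and 0.230% with TM 6 h, against 0.171% and 0.157% untreated. The footprint sums were 0.121% and 0.112% with TM 6 h, against 0.0780% and 0.0778% untreated. The sum weighs each member by its counts and does not show that all members rose. In RNA, HSPA9 held 101547 of 258837 summed counts in TM 6 h replicate 2, against 56826 of 208873 in untreated replicate 2. In replicate 3 it held 106406 of 269782 with TM 6 h, against 46397 of 158675 untreated. The single TH 6 h libraries held 0.317% in RNA (exact Clopper-Pearson 95% interval 0.317% to 0.318%) and 0.161% in footprints (0.158% to 0.164%). These intervals cover counting error only.

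Around the members, partners and import components of the matrix Hsp70 were among the genes that rose in RNA at TM 6 h. Of 8 Hsp70 and Hsp60 cofactors, 2 were called higher and 0 lower: GRPEL2, a nucleotide exchange factor of HSPA9, at 1.55 ± 0.27 on the log2 scale (edgeR adjusted p 0.0228), and TIMM44, which tethers HSPA9 to the inner membrane channel, at 1.27 ± 0.21 (adjusted p 0.0166). Of 9 genes of the import channel, 1 was called higher, TIMM17A, a channel subunit, at 1.84 ± 0.31 (edgeR adjusted p 0.0191). The medians of these lists were 0.55 and 0.24, against -0.27 over all genes. Of 14 other mitochondrial proteases and peptidases 0 were called, with the smallest p-values in PITRM1, a presequence peptidase (0.88, edgeR adjusted p 0.220), PARL, a rhomboid protease of the inner membrane (0.58, 0.302), and MIPEP, an intermediate peptidase (-0.33, 0.451), and a median of 0.04. Of 4 genes listed with the scaffolds of the membrane proteases 0 were called, with the scaffold genes PHB2 at 0.27 and STOML2 at 0.28. AFG3L2P1 of that list is a pseudogene copy of a protease subunit, not a scaffold, and its -0.59 rests on 3 to 17 RNA counts per library.

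Among 10 regulators linked to mitochondrial stress, ATF4 (1.63 ± 0.30, edgeR adjusted p 0.0256) and DDIT3, which encodes CHOP (4.85 ± 0.52, adjusted p 0.00161), were called higher in RNA at TM 6 h, and ATF5 was at 0.02. Of 12 ER and cytosolic paralogs of the members, 2 were called higher, the ER Hsp70 gene HSPA5 (3.67 ± 0.52, edgeR adjusted p 0.00782) and the ER Hsp90 gene HSP90B1 (1.63 ± 0.27, adjusted p 0.0169), and 1 lower, the cytosolic Hsp70 gene HSPA8 (-1.86 ± 0.30, adjusted p 0.0144). The Hsp70 genes HSPA5 of the ER and HSPA9 of the mitochondria were thus called higher and HSPA8 of the cytosol lower in the same libraries. The cytosolic Hsp70 genes HSPA1A and HSPA1B of the same list were not called. The differences between these genes were not tested. In footprints at TM 6 h, DDIT3 (4.52 ± 0.53, edgeR adjusted p 0.00238) and HSPA5 (3.37 ± 0.38, adjusted p 0.00143) were called higher and HSPA8 lower (-1.52 ± 0.29, adjusted p 0.0323). GRPEL2 (1.32, adjusted p 0.082), TIMM44 (1.08, 0.238), TIMM17A (1.40, 0.0541) and ATF4 (1.41, 0.0534) did not pass the test there. At TH 6 h in RNA, GRPEL2 (1.63, edgeR adjusted p 0.0478), TIMM17A (2.28, 0.0211), ATF4 (1.83, 0.0424), DDIT3, HSPA5 and HSP90B1 were called higher, each from 1 TH library.

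**Figure D5:**
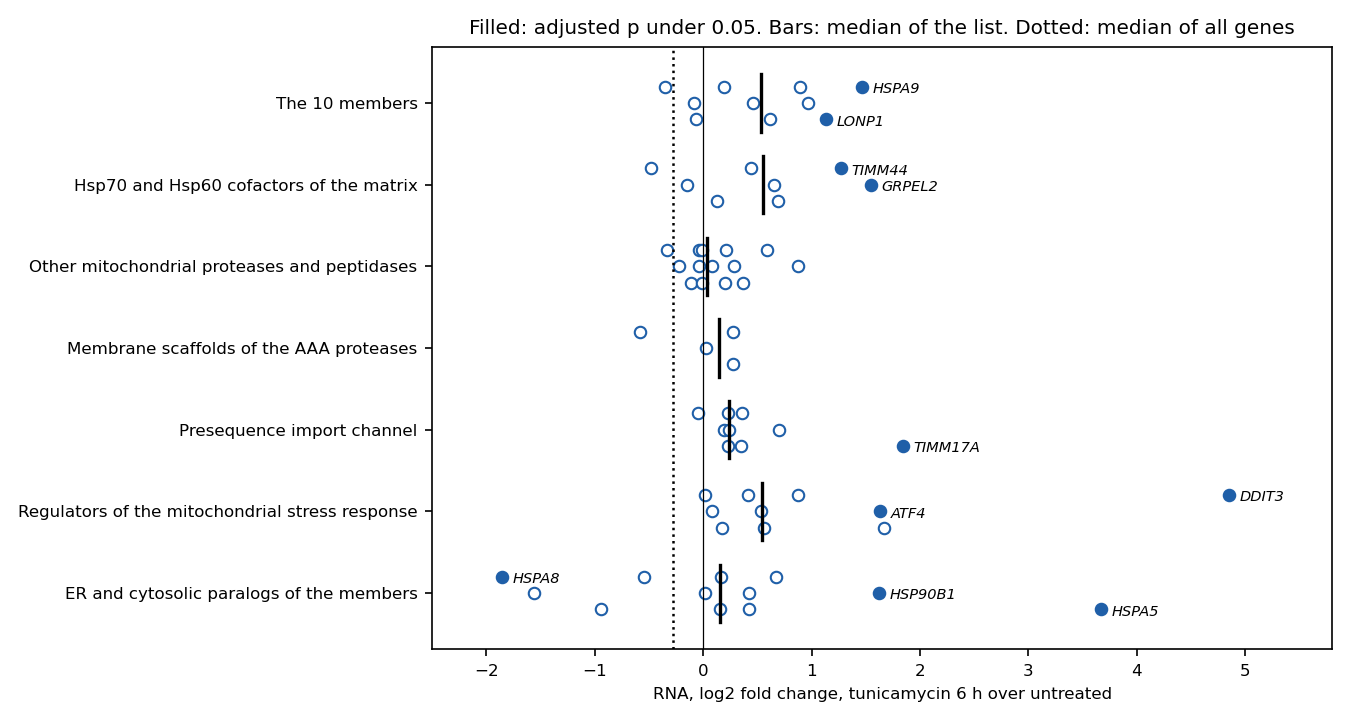
RNA log2 fold change at TM 6 h over untreated for each gene of the members and of 6 related lists, 1 row per list, with called genes filled and named. GRPEL2, TIMM44 and TIMM17A stand beside HSPA9 and LONP1, and HSPA5 and HSPA8 lie on opposite sides of 0.

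Copies and overlapping genes limit some values. HSPE1-MOB4, a readthrough entry over HSPE1, had 0 counts in all 22 libraries. Of 49 copies and overlapping genes, 37 were tested in RNA and 0 called at TM 6 h. The processed copies HSPD1P11 and HSPD1P1 had 177 to 784 and 119 to 476 RNA counts per library, and HSPE1P27 had 146 to 242. HSPA9P1, a copy of HSPA9, had 22 to 196 RNA counts and was called higher in RNA at TH 6 h (log2 fold change 2.41 ± 0.42, edgeR adjusted p 0.0223), beside 190235 counts of HSPA9 in that library. Reads of near-identical copies can be split by the counting, so these values are uncertain. In RefSeq, HSPA9, LONP1, TRAP1 and AFG3L2 overlap other genes (a lncRNA, RPL36, DNASE1 and TUBB6 among them), and no source used here states the strand setting of the counting, so reads over the shared stretches cannot be told apart.

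Over the 11 RNA libraries, the genes whose log2 CPM followed a member most closely were picked by Pearson correlation among 9885 genes. They were PYCR1 (0.995), LARP6 (0.992) and CRELD2 (0.992) for LONP1, MBNL2 (0.995), RAB1A (0.993) and RBM26 (0.993) for HSPA9, and MED19 (0.994), TMEM243 (0.993) and UFM1 (0.992) for YME1L1. HSPD1 was closest to MRPS35 (0.994), AAMP (0.993) and INTS13 (0.992), DNAJA3 to GTF2H2C (0.987), POLR3B (0.984) and CSNK2A1 (0.984), and AFG3L2 to THOC1 (0.988), ACP1 (0.987) and FAM204A (0.986). TRAP1 was closest to SMS (0.965), LCMT1 (0.963) and EMC8 (0.962). CLPP followed MRPL41 (0.989), SNAPC2 (0.982) and REX1BD (0.973), HSPE1 followed NUP85 (0.973) and MYL6 (0.969), and SPG7 followed MICAL1 (0.989), PRDM10 (0.960) and PRXL2B (0.958). Among the members, HSPA9 and YME1L1 had the highest correlation (0.969), followed by HSPD1 with AFG3L2 (0.949) and HSPA9 with DNAJA3 (0.946). HSPD1 and HSPE1, which share a start region, were at 0.729, LONP1 and CLPP at -0.04, and SPG7 and YME1L1 at -0.744. These are descriptions over libraries that share treatments, depth and the shift of replicate 1.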

How the data were processed

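RNA-Seq and Ribo-Seq of LN308 cells were deposited as raw read counts per gene, 1 column per library, with no normalization in the deposited counts; the submitters' processing notes name STAR 2.5.4b, HTSeq, DESeq2 and GRCh38. Of 58278 entries 57437 have a symbol. The 10 members and all lists were chosen with earlier results of these data known. Genes were kept by edgeR's filterByExpr (minimum count 10), scaled by TMM and tested with the edgeR 4.0.16 quasi-likelihood test (limma 3.58.1, R 4.3.3) over all 11 libraries of an assay, or over all 22 libraries for translational efficiency (an interaction term), with Benjamini-Hochberg adjustment over all genes and calls at an adjusted p under 0.05. Tested genes numbered 41130 in RNA, 19411 in footprints and 39928 for translational efficiency, and the biological coefficients of variation were 0.506, 0.546 and 0.551. TH groups have 1 library each. No libraries were identical: 0 pairs held the same values, and chi-square per degree of freedom within groups was 25.8 to 543. The main tests used no pairing, and the replicate block was an alternative. Replicate numbers were checked as a possible pairing, by whether every same-numbered pair's deviations correlated above 0.1 over all tested genes. This held for RNA at TM 6 h versus untreated (0.109 to 0.226) and 6 h versus 2 h (0.414 to 0.676). In footprints it held for TM 6 h versus untreated (0.122 to 0.196), TM 2 h versus untreated (0.212 to 0.242) and 6 h versus 2 h (0.211 to 0.407). It did not hold for RNA at TM 2 h versus untreated (0.0756 to 0.238). Over the 10 members alone, the pairs at TM 6 h versus untreated correlated at -0.120 to 0.0827 in RNA and -0.501 to 0.0275 in footprints. At 6 h versus 2 h in RNA they correlated at 0.648 to 0.780. Named with values were all members, the called genes of each list or, where 0 were called, the 3 with the smallest p, and the 3 genes most correlated with each member (mean at least 10 CPM, log2 CPM with a prior count of 2), of which 1 is not reported here. Alternatives were DESeq2 1.42.0, other scalings, no filter, the replicate block, the compared groups alone, leaving out each replicate, and, chosen after seeing the data, replicates 2 and 3 alone and a filter passed in both assays. Gene positions and sequences are RefSeq's, and a planned comparison of protein sequences was not run.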

Additional observations from a re-analysis of the deposited data

How the results depend on the processing

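Counts of called members moved with the setting. In RNA at TM 6 h versus untreated, where 2 were called, DESeq2 called 4, the replicate block 4, the compared groups alone 1, and replicates 2 and 3 alone 6, and leaving out single replicates gave 0 to 2. In RNA at TM 6 h versus 2 h, where 0 were called, DESeq2's size factors gave 1, library size alone 1, DESeq2 4, the replicate block 2, the compared groups alone 1, and replicates 2 and 3 alone 6. In RNA at TH 6 h, where 1 was called, DESeq2 called 4, and leaving out single replicates gave 0 to 4. In footprints at TM 6 h versus untreated, where 1 was called, library size alone gave 0, DESeq2 3, the replicate block 2, replicates 2 and 3 alone 2, and leaving out single replicates 0 to 1. In footprints at TM 6 h versus 2 h, where 0 were called, DESeq2's size factors gave 1, no filter 2, DESeq2 3, the replicate block 2, replicates 2 and 3 alone 2, and leaving out single replicates 0 to 1. In footprints at TH 6 h, where 2 were called, DESeq2 called 3, and leaving out single replicates gave 0 to 2. The summed share at TM 6 h minus untreated ranged between 0.0680 and 0.106 percentage points in RNA and between 0.0385 and 0.0497 in footprints without single replicates. The replicate block changed no other call, and the cause of these moves was not tested.

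Over all members, comparisons and alternatives 197 of 1850 fold changes changed sign, 0 of them called, among them 42 of 190 in translational efficiency at TM 6 h and, at TM 2 h, 23 of 130 in RNA and 26 of 130 in footprints. At 6 h versus untreated this concerned 4 members in RNA or footprints. In RNA at TM 6 h TRAP1 was at -0.062 by library size alone and -0.043 with replicates 2 and 3 alone, and without single replicates HSPE1 ran between -0.38 and 0.20 and CLPP between -0.25 and 0.093. At TH 6 h TRAP1 was at -0.089 by library size alone. In footprints at TM 6 h CLPP was at 0.034 with DESeq2's size factors, 0.036 by DESeq2, 0.038 with the replicate block, 0.036 with the compared groups alone and between -0.17 and 0.23 without single replicates. AFG3L2 was at 0.045 with DESeq2's size factors, 0.043 by DESeq2, 0.050 with the replicate block, 0.050 with the compared groups alone and between -0.24 and 0.18 without single replicates (-0.36 and 0.059 at TH 6 h). HSPE1 ran between -0.072 and 0.29 without single replicates and was at -0.14 with replicates 2 and 3 alone. Over the 13 alternatives HSPA9 at TM 6 h kept a log2 fold change of 1.07 to 1.62 in RNA, called in 7, and 1.34 to 1.50 in footprints, called in 7; LONP1 in RNA kept 0.86 to 1.23, called in 8. Scaling by library size alone moved the median of all genes in RNA at TM 6 h to -0.58, in place of -0.27, and the share of higher among called genes to 71.6%, in place of 81.7% (70.5% in place of 83.2% at TH 6 h); HSPA9 and LONP1 were called higher under it at TM 6 h. Depth limits the footprints of HSPE1, with 21 to 260 counts per library.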
